A study of Homo sapiens with 6 samples.

Results

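The 10 genes described here make up the receptor and signalling core of the interleukin-6 cytokine family. They are IL6ST, the receptor chains LIFR, IL6R, OSMR and CNTFR, the Janus kinases JAK1, JAK2 and TYK2, the transcription factor STAT3 and the inhibitor SOCS3. They were taken by gene name from the 61860 genes of the deposited table, and all 10 were found. IL6ST was chosen by its log2 fold change, Oligonol over control, which stood among the largest protein-coding rises, and the others because they work with it. Differences between Oligonol and control are therefore given for these genes as a description, with no test. A filter on low counts kept 16574 genes and 8 of the 10. IL6R and OSMR did not pass it and are described by their values alone. A gene could pass through the group in which it was high, so counts over the 8 describe those genes only.

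IL6ST encodes gp130, the transmembrane chain that cytokines of the interleukin-6 family share. Interleukin-6 and ciliary neurotrophic factor first bind a private chain (IL6R or CNTFR) that does not signal itself, while LIFR and OSMR pair with gp130 and carry signal-transducing tails. JAK1, JAK2 and TYK2 sit on those tails and phosphorylate STAT3, which enters the nucleus and switches on target genes that include SOCS3, a protein that binds gp130 and the kinases and shuts the signal down. In neurons and neuroblastoma cells the CNTFR, LIFR and gp130 complex is known for survival and differentiation signals.

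The study sequenced total RNA from SH-SY5Y, a single human neuroblastoma line that becomes neuron-like under all-trans retinoic acid. Cells of both groups had been differentiated in this way and then kept for 24 h in insulin at 100 nM with D-glucose at 30 mM, which induces insulin resistance (IR). The IR control group (3 libraries) received nothing further, and the IR+Oligonol group (3 libraries) received Oligonol, a polyphenol preparation from lychee fruit, at 500 ng/mL for 24 h. No group free of insulin resistance was analysed here. The labels do not say whether libraries of 1 group are separate cultures, and p-values therefore reflect a spread between samples that may be technical.

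Library totals were 19457923 to 32209583 estimated counts, of which protein-coding genes held 6.24 to 6.83% in controls and 10.0 to 12.3% with Oligonol. Fold changes depended on how that shift was scaled: the median log2 fold change over all tested genes was 0.15 with TMM scaling and 1.53 with library totals. TMM is used throughout, and changes are relative to it. The fold changes of protein-coding genes also followed the GC content of their transcripts (Spearman's rho -0.851 over 11719 genes, which share the 6 libraries). Fold changes are therefore also given after each library's GC trend had been taken out, a step that takes away a true change that follows GC along with any other. Among the marker genes of the labelled line, the transcription factors PHOX2A, HAND2 and GATA3 were present in all libraries, and the 11 markers summed to 192 to 234 CPM in controls and 131 to 180 CPM with Oligonol. TH, which makes the catecholamine precursor, was nearly absent at 0.0267 to 0.116 CPM. The 10 mesenchymal markers summed to 38.2 to 55.4 CPM and 31.3 to 34.7 CPM, the 6 myeloid markers to 0.834 to 1.66 CPM and 0.811 to 1.41 CPM, the 5 astroglial markers to 0.765 to 1.25 CPM and 1.15 to 1.57 CPM, and the 4 hepatocyte markers to 0.0321 to 0.154 CPM and 0.137 to 0.254 CPM, with ALB at 0 everywhere. Markers within a sum did not move together. PHOX2A stood at 67.8 to 87.3 CPM in controls and 34.7 to 63.4 CPM with Oligonol. STMN2 stood at 13.4 to 19.0 CPM and 20.9 to 24.6 CPM. Of 10 tested noradrenergic markers 0 were called higher and 1 lower, and of 6 tested mesenchymal markers 1 and 1. Over all tested genes 26.0% were called higher and 23.0% lower. The part of the noradrenergic and mesenchymal sums in the results below was not tested, and in bulk RNA fewer cells of a type cannot be told apart from less RNA per cell.

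The promoters of the receptor chains are shown because IL6ST and LIFR are the tested members whose Oligonol libraries all lay above the controls. RefSeq (GRCh38.p14) gave 300-base windows, from 250 bases before to 50 after an annotated start, for all 10 genes, 18 windows in total. The 250 bases before the start are printed 5′ to 3′ on the gene's strand, the minus strand for both genes. Capitals mark GGGCGG on either strand, the GC box bound by Sp1-type factors, and TTCNNNGAA, the palindromic core to which STAT dimers bind. The IL6ST stretch is chr5:55994964-55995213, and the LIFR stretches are chr5:38556647-38556896 and chr5:38557468-38557717.
IL6ST: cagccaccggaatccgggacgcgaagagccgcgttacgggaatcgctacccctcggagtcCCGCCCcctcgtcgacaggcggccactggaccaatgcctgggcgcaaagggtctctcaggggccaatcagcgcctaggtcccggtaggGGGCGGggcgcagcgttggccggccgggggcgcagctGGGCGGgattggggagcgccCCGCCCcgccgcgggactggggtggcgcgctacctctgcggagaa
LIFR, GC-rich start: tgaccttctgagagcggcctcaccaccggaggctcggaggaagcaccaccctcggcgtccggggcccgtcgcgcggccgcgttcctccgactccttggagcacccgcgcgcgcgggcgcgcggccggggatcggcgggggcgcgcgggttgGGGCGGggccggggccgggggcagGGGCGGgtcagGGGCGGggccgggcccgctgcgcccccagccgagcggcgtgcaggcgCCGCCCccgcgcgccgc
LIFR, AT-richer start: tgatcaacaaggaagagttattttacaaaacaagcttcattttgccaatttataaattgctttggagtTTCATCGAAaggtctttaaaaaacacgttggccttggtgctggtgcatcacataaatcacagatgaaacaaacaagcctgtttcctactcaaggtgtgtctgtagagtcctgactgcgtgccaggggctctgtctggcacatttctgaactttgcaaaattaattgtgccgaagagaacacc
The IL6ST window held 4 GC boxes, first bases at -190, -102, -65 and -45 from the start, no TTCNNNGAA, and 72.7% GC. That is far above the 40.2% GC of the median IL6ST transcript. The GC-rich LIFR window likewise held 4 GC boxes, in 81.7% GC. The AT-richer LIFR window had none and carried TTCATCGAA from -182 to -174. The remaining LIFR window carried TTCCTTGAA from -165 to -157. GC boxes stood in 7 of the 18 windows, 1 window for each of 7 genes (IL6ST, LIFR, OSMR, CNTFR, JAK1, JAK2 and STAT3), and in 45.0% of all 35116 RefSeq promoter windows of this length. Among the 15000 windows of genes that passed the low-count filter, 65.9% held a GC box, 6.25% TTCNNNGAA and 1.13% TTCCNGGAA. Only LIFR among the 10 had a TTCNNNGAA, which 7.66% of all windows held, and no member window had the stricter form TTCCNGGAA, found in 1.15% of all. For SOCS3, 1 window lay beyond and 1 inside the deposited 5′ end of the gene at position 78360077 of chromosome 17, so the bases around that end were not searched.

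Levels are CPM, estimated counts scaled to a fixed library total after TMM scaling. The deposited values behaved as abundances per transcript length, so levels of different genes are set beside each other. The part of GC content in such comparisons was not tested. In control cells CNTFR was the most abundant of the 10. CNTFR, the private chain for ciliary neurotrophic factor, stood at 17.0, 12.5 and 12.2 CPM in control libraries 1 to 3. Its signalling partners were far lower, LIFR at 0.450, 0.352 and 0.440 CPM and IL6ST at 0.833, 1.53 and 0.629 CPM. The other private chain, IL6R, stood at 0.241, 0.137 and 0.129 CPM and OSMR, the oncostatin M receptor chain, at 0.0513, 0.0162 and 0.110 CPM. By these values the control cells carried much CNTFR RNA beside little RNA for the chains that signal with it, and close to none for IL6R and OSMR. Median transcript GC was 61.6% for CNTFR but 40.2% for both IL6ST and LIFR, so the true distance between their levels is not known.

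By mean control level the order was CNTFR at 13.9 ± 2.67 CPM (SD, n = 3, as in all means here), TYK2 at 6.75 ± 0.865, STAT3 at 6.01 ± 1.43, JAK1 at 3.38 ± 0.699, SOCS3 at 2.48 ± 0.845, IL6ST at 0.997 ± 0.472, JAK2 at 0.616 ± 0.382, LIFR at 0.414 ± 0.0540, IL6R at 0.169 ± 0.0625 and OSMR at 0.0593 ± 0.0477. The libraries of TYK2 and STAT3 overlapped, as did those of JAK1 and SOCS3, of IL6ST and JAK2, and of JAK2 and LIFR. The other neighbours in this order did not overlap. Among the kinases, TYK2, first known from interferon signalling, exceeded JAK1 in all 3 control libraries, and JAK2 varied most, from 0.192 to 0.934 CPM.

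With Oligonol, IL6ST had the largest fitted fold change among the 8 tested members. IL6ST (chromosome 5, 55935095 to 55995022 in GRCh38.p13, minus strand, as for all coordinates from the deposited table) went from 0.833, 1.53 and 0.629 CPM in controls to 6.64, 4.56 and 4.83 CPM in Oligonol libraries 1 to 3. All 3 Oligonol libraries lay above all controls. The mean went from 0.997 ± 0.472 to 5.34 ± 1.13 CPM, a ratio of 5.36, and the fitted log2 fold change was 2.41 (SE 0.33). At the median transcript length of 612 nt these levels correspond to 18.6 to 41.2 reads in controls and 151 to 246 with Oligonol, although 15 annotated transcripts reach 9057 nt and the true read number depends on which were present.

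Among its receptor partners only part moved with it. LIFR (chromosome 5, 38474668 to 38608354), which pairs with gp130 for leukaemia inhibitory factor and ciliary neurotrophic factor, stood at 0.932, 0.514 and 1.27 CPM with Oligonol against 0.352 to 0.450 CPM in controls. Its groups did not overlap, but Oligonol library 2 was only just above the controls, and the log2 fold change was 1.09 (SE 0.40). OSMR (chromosome 5, 38845858 to 38945596) stood at 0.174, 0.683 and 0.220 CPM with Oligonol, again above all controls, on 8.63 to 30.3 reads at its median transcript length against 0.580 to 4.38 in controls. The direction for OSMR rests on very few reads. IL6R (chromosome 1, 154405193 to 154469450) stood at 0.219, 0.128 and 0.228 CPM, inside or just below its control range. CNTFR (chromosome 9, 34551432 to 34590140) went the other way, to 6.32, 10.6 and 8.48 CPM, all below its lowest control, with a log2 fold change of -0.72 (SE 0.25) under TMM that turned to 0.59 with library totals.

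The kinases did not share one direction. JAK1 (chromosome 1, 64833223 to 65067754), the kinase on which gp130 signalling mainly depends, stood at 5.31, 5.14 and 4.13 CPM with Oligonol against 2.79, 3.21 and 4.15 CPM. Oligonol library 3 fell within the control range, and the log2 fold change was 0.51 (SE 0.21). JAK2 (chromosome 9, 4984390 to 5129948) stood at 0.727, 0.287 and 0.802 CPM against 0.724, 0.934 and 0.192 CPM. Its groups overlapped throughout, and the SE of 0.59 around a log2 fold change of 0.03 was the widest among the tested members. TYK2 (chromosome 19, 10350533 to 10380608) stood at 3.24, 4.62 and 3.01 CPM against 6.13, 7.74 and 6.38 CPM, lower in every Oligonol library, with a log2 fold change of -0.91 (SE 0.22) under TMM and 0.44 with library totals.

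STAT3 overlapped between the groups, while the level of its target and inhibitor SOCS3 did not. STAT3 (chromosome 17, 42313324 to 42388540) stood at 6.26, 6.35 and 6.57 CPM with Oligonol, within the control range of 4.91 to 7.62 CPM. Its log2 fold change was 0.09 (SE 0.20), and its Oligonol libraries lay closer together than those of any other member, with a coefficient of variation of 2.48%. SOCS3 (chromosome 17, 78356778 to 78360077) stood at 0.951, 1.01 and 0.912 CPM against 1.60, 2.57 and 3.28 CPM. All 3 Oligonol libraries lay below all controls, with a log2 fold change of -1.36 (SE 0.28) under TMM and 0.06 with library totals.

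**Figure D1:**
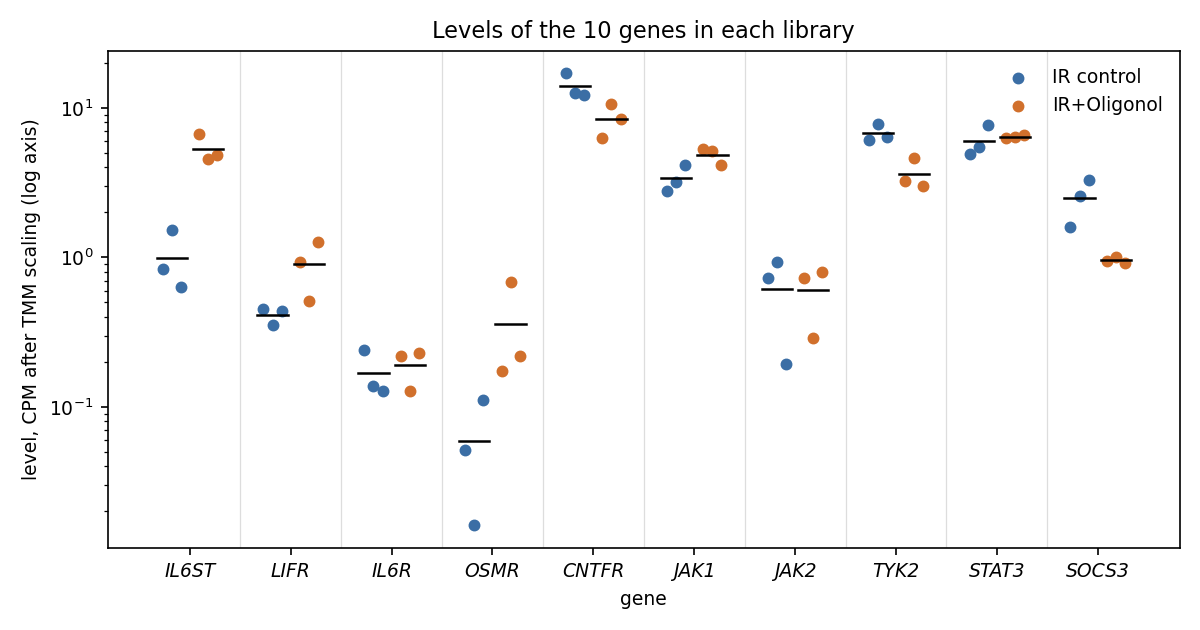
Level of each of the 10 genes in each library, as CPM after TMM scaling on a log axis, with points for the 3 IR control and 3 IR+Oligonol libraries and bars for group means. IL6ST, LIFR and OSMR lay higher in all Oligonol libraries, and CNTFR, TYK2 and SOCS3 lower, a direction that turned for these last genes when libraries were scaled by their totals.

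Of the 8 tested members, the fit across all genes called 1 higher (IL6ST) and 3 lower (CNTFR, TYK2 and SOCS3), in a comparison that called 26.0% of all tested genes higher and 23.0% lower, 48.9% in all. Groups did not overlap for 2 members in the higher direction and 3 in the lower, where 33.8% and 28.8% of all tested genes did not overlap, 62.6% in all. The contrast was used to choose the members, so nothing is read from these counts. The median log2 fold change of the 8 was 0.06, beside 0.15 over all tested genes. The call of CNTFR was lost when any library except Oligonol 2 was left out (log2 fold changes of -0.93 to -0.54), without a low-count filter (-0.70), at a minimum of 10 counts in every library (-0.49) and with the replicate number as a block (-0.73). That of TYK2 was lost without Oligonol 1 or Oligonol 3 (-1.12 to -0.79 over the 6 libraries) and without a low-count filter (-0.90). With each library left out, log2 fold changes were 2.17 to 2.85 for IL6ST and -1.60 to -1.12 for SOCS3.

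Transcript GC ran with the fold changes of the members, JAK2 apart. Median transcript GC was 40.2% for IL6ST, 40.2% for LIFR and 40.9% for JAK2, 50.2% for JAK1 and 51.3% for STAT3, and 60.4% for TYK2, 61.6% for CNTFR and 68.1% for SOCS3, beside a median of 50.3% over tested protein-coding genes. With each library's GC trend removed, IL6ST had a log2 fold change of 1.43 (SE 0.23), and the values of LIFR at 0.06 (SE 0.37), CNTFR at 0.18 (SE 0.18), TYK2 at -0.05 (SE 0.13), SOCS3 at -0.32 (SE 0.29), STAT3 at 0.13 (SE 0.15) and JAK1 at 0.41 (SE 0.17) all lay within 0.5 of 0. JAK2 stood apart at -0.92 (SE 0.52). That fit called 5.44% of 16200 genes (2.89% higher and 2.56% lower) and 1 of the 8 members, IL6ST, whose call was lost without control 2, control 3 or any Oligonol library (1.28 to 1.74 over the 6) and held without control 1. By fold change IL6ST ranked 15 of 11719 tested protein-coding genes under TMM and 68 with the GC trend removed. Among 1531 protein-coding genes called higher at a mean log2 CPM of at least 1 with groups that did not overlap, IL6ST ranked 6, between MYEF2 at 2.42 and CNTNAP2 at 2.40.

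**Figure D2:**
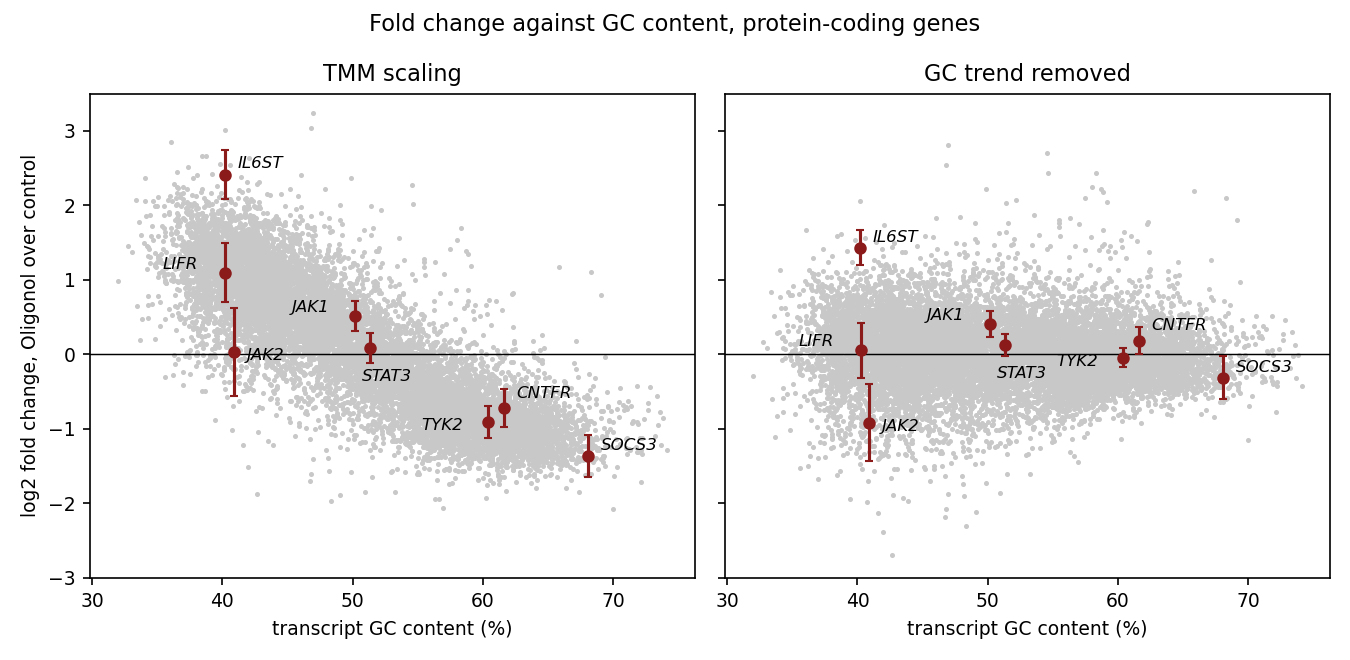
Log2 fold change, Oligonol over control, against median transcript GC content (%) for tested protein-coding genes (grey) and the 8 tested members (red, with bars of 1 SE), under TMM scaling (left) and with each library's GC trend removed (right), with 2 grey genes beyond the axis in each panel. On the left the members fall with GC content, JAK2 apart, and on the right IL6ST at 1.43 and JAK2 at -0.92 lie farthest from 0.

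Ratios between members within a library do not depend on how libraries are scaled, though a GC trend still enters them. IL6ST was chosen for its rise in this contrast, so shifts in ratios that hold IL6ST carry that choice and are a description only. CNTFR RNA exceeded IL6ST RNA 20.4, 8.18 and 19.5 times in control libraries 1 to 3. In Oligonol libraries 1 to 3 the ratio was 0.951, 2.33 and 1.76, so that the receptor's binding chain and its signalling chain stood at similar levels. CNTFR to LIFR went from 37.8, 35.5 and 27.8 to 6.78, 20.7 and 6.68.

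IL6ST also gained on the kinase and transcription factor beneath it. IL6ST to JAK1 went from 0.299, 0.477 and 0.152 to 1.25, 0.887 and 1.17. IL6ST to STAT3 went from 0.170, 0.278 and 0.0826 to 1.06, 0.718 and 0.734. Neither ratio overlapped between the groups, but nothing is read from that, as IL6ST was chosen for its rise. IL6ST to LIFR, genes of equal transcript GC, went from 1.85, 4.35 and 1.43 to 7.13, 8.88 and 3.80, with control library 2 above Oligonol library 3.

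STAT3 and IL6ST both stood higher against SOCS3. STAT3 to SOCS3 stood at 3.08, 2.14 and 2.32 in controls and at 6.59, 6.32 and 7.21 with Oligonol, and IL6ST to SOCS3 went from 0.522, 0.596 and 0.192 to 6.99, 4.53 and 5.29. The balance of the kinases turned over: TYK2 to JAK1 was 2.20, 2.41 and 1.54 in controls and 0.610, 0.898 and 0.727 with Oligonol. STAT3 to JAK1 went from 1.76, 1.71 and 1.84 to 1.18, 1.24 and 1.59. In each of these pairs the gene that lost ground was the more GC-rich, and the part of GC in the ratios was not tested.

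**Figure D3:**
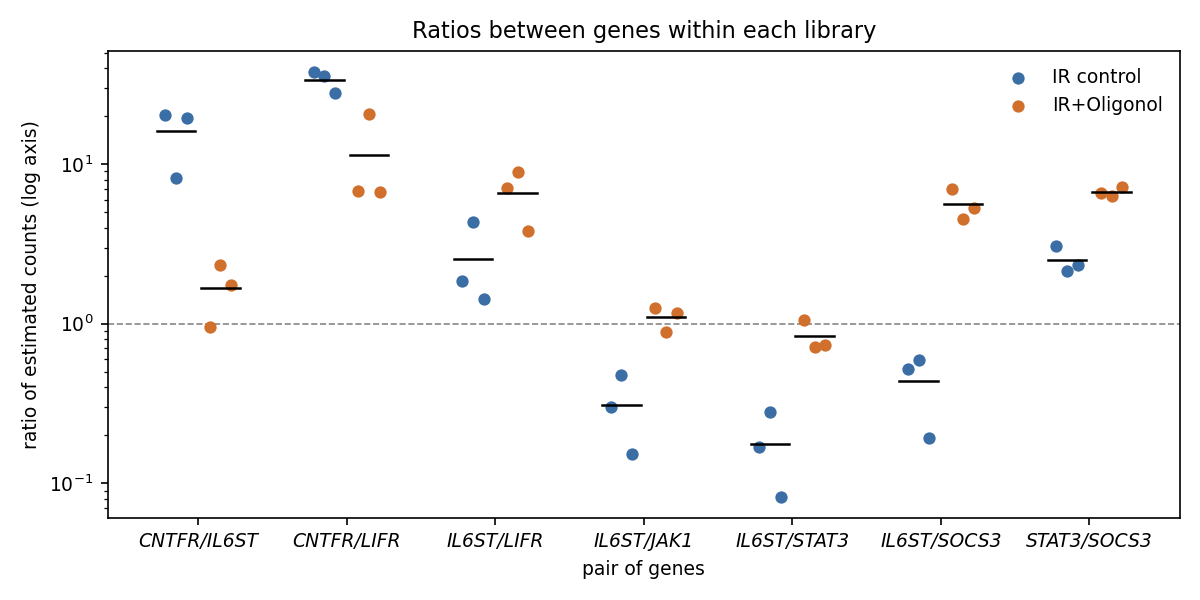
Ratio of estimated counts of gene pairs within each library on a log axis, with points for the 3 IR control and 3 IR+Oligonol libraries, bars for group means and a dashed line at equal levels. CNTFR to IL6ST dropped from 8.18 to 20.4 in controls to 0.951 to 2.33 with Oligonol, and IL6ST to SOCS3 crossed from below to above 1.

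With Oligonol the order of levels was CNTFR at 8.47 ± 2.15 CPM, STAT3 at 6.40 ± 0.159, IL6ST at 5.34 ± 1.13, JAK1 at 4.86 ± 0.636, TYK2 at 3.62 ± 0.870, SOCS3 at 0.956 ± 0.0471, LIFR at 0.905 ± 0.378, JAK2 at 0.605 ± 0.278, OSMR at 0.359 ± 0.281 and IL6R at 0.192 ± 0.0555. Only TYK2 and SOCS3 were neighbours whose libraries did not overlap. IL6ST had thus moved from the lower part of the order into an overlapping group with STAT3, JAK1 and TYK2.

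The genes whose pattern over the 6 libraries came closest to IL6ST were not other members. By Euclidean distance of log2 CPM less each gene's mean, over 11727 protein-coding genes, the nearest were WRN, a RecQ helicase (distance 0.549, Pearson's r 0.984), and PDE4B, a cyclic AMP phosphodiesterase (0.549, 0.994). ZBTB41, a zinc finger protein (0.568, 0.990), RAPGEF6, an exchange factor for Rap proteins (0.576, 0.982), and PPP1CB, a catalytic subunit of protein phosphatase 1 (0.592, 0.982), came next. All 5 had AT-rich transcripts, at 34.0 to 43.6% GC, and log2 fold changes of 2.13 to 2.66, or 1.14 to 1.73 with the GC trend removed. The points share libraries, depth and base composition. The nearest member was LIFR at rank 3340 of likeness, followed by JAK1 at 4186, and SOCS3 was the farthest at 11081.

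Several members lie beside relatives in the genome. IL31RA, a gp130-like receptor, lies 12240 nt from IL6ST and stood at 0.0117 to 0.104 CPM in controls and 0.120 to 0.183 CPM with Oligonol, too few counts for the test. LIFR and OSMR lie 237503 nt apart. CNTFR lies 62021 nt from IL11RA, the interleukin-11 receptor chain, and both had negative log2 fold changes under TMM (-0.72 and -1.13). STAT3 lies 1380 nt from STAT5A and 24690 nt from STAT5B, whose log2 fold change was -0.05. Antisense and divergent RNAs of these loci were looked at after their values were seen. LIFR-AS1, antisense to LIFR, stood at 0.0655 to 0.118 CPM in controls and 0.126 to 0.243 CPM with Oligonol, and SOCS3-DT at 0.266 to 0.346 CPM and 0.0516 to 0.105 CPM, so that neither overlapped. Over all tested genes 62.6% did not overlap. Both rest on few reads, 5.06 to 23.2 for LIFR-AS1 and 1.98 to 9.76 for SOCS3-DT at the median transcript length. Their median transcript GC was 43.3% and 57.8%. Groups overlapped for IL6ST-DT (0.0900 to 0.133 CPM and 0.0810 to 0.147 CPM), for OSMR-DT (0.0489 to 0.191 CPM and 0.0669 to 0.214 CPM) and for CNTFR-AS1 (1.05 to 2.21 CPM and 0.930 to 1.24 CPM). CNTFR-AS1 was the only 1 of these with enough counts for the fit (log2 fold change -0.44, SE 0.32). LIFR-AS1 and CNTFR-AS1 lie over their partners, and whether counting used strand is unknown, so reads of these pairs may not be told apart. The deposited coordinates of IL6ST-DT, OSMR-DT and SOCS3-DT do not overlap those of IL6ST, OSMR and SOCS3. The pseudogene IL6STP1 was at 0 in all 6 libraries.

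Beyond the 10 genes, 97 others of the pathway were listed in 6 groups, of which 71 passed the low-count filter. By edgeR's quasi-likelihood test with Benjamini-Hochberg adjustment over all genes, 25 of the 71 were higher and 22 lower, where 26.0% and 23.0% of all genes were called. Their median log2 fold change was -0.16, beside 0.15 for all genes. With the GC trend removed 3 were higher and 2 lower, where 2.89% and 2.56% of all genes were called. These shares over all genes are the background for the counts of each list below. The lower count dropped to 12 without control 2, 11 without control 3 and 5 without Oligonol 1 or Oligonol 3, and the higher count to 14 without Oligonol 3.

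Ligand RNAs were scarce, and the 3 that could be tested were all lower, where 23.0% of all tested genes were called lower. LIF, leukaemia inhibitory factor, which signals through LIFR and gp130, stood at 2.87, 4.43 and 3.90 CPM in controls and 1.51, 2.12 and 1.98 CPM with Oligonol, so that it fell by 1.00 on the log2 scale (SE 0.23, adjusted p = 0.0119). IL11, interleukin-11, fell by 1.29 (SE 0.39, adjusted p = 0.0266). IL11 was called in 2 of the 6 fits with a library left out, its call being lost without control 2, control 3, Oligonol 1 or Oligonol 3. With library totals LIF was at 0.38 and IL11 at 0.03 instead. With the GC trend removed LIF was at -0.22 and IL11 at -0.37, and edgeR called 0 of the 3 (0 at an unadjusted p under 0.05). Of the 7 untested ligands IL27 was at 0 in all libraries, IL6 had at most 0.590 estimated counts, and CNTF, the ligand of CNTFR, stood at 0.0647 to 0.0966 CPM in controls and 0.310 to 0.531 CPM with Oligonol.

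Of 15 other JAK-coupled cytokine receptors 7 were tested, 2 of them higher and 3 lower, with a median of -0.01. The shares over all tested genes were 26.0% higher and 23.0% lower. IFNAR1, a chain of the type I interferon receptor, went from 0.621, 0.714 and 0.402 CPM to 1.96, 1.33 and 1.75 CPM (log2 fold change 1.55, SE 0.29, adjusted p = 0.00844). IL11RA, the private chain for interleukin-11, fell by 1.13 (SE 0.18, adjusted p = 0.00722), IL27RA by 1.37 (SE 0.28, adjusted p = 0.00988) and EPOR, the erythropoietin receptor, by 0.96 (SE 0.23, adjusted p = 0.0128). The call of EPOR was lost without Oligonol 1 or Oligonol 3. With library totals the fold changes of IL11RA (0.25), IL27RA (0.0041) and EPOR (0.38) were positive, and with the GC trend removed, where IFNAR1 was at 0.96, IL11RA at -0.25, IL27RA at -0.65 and EPOR at 0.02, edgeR called 0 of the 7 (2 at an unadjusted p under 0.05).

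Among 7 other JAK and STAT genes 5 were tested, 1 of them higher and 2 lower, with a median of -0.05. The shares over all tested genes were 26.0% higher and 23.0% lower. STAT2, which acts in type I interferon signalling, fell by 0.51 (SE 0.16, adjusted p = 0.0333) and JAK3, a kinase of lymphocyte cytokine receptors, by 1.00 (SE 0.28, adjusted p = 0.0228). STAT6 did not pass the test (log2 fold change 0.83, SE 0.41, adjusted p = 0.126). The 2 lower calls were thin: JAK3 lost its call without control 2, control 3, Oligonol 1 or Oligonol 3, and STAT2 kept its own only without Oligonol 2. With library totals JAK3 was at 0.40 and STAT2 at 0.88, and with the GC trend removed, where JAK3 was at -0.06, STAT2 at -0.39 and STAT6 at 1.45, edgeR called 0 of the 5 (2 at an unadjusted p under 0.05).

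Inhibitors of the pathway split, with 6 of 13 tested higher and 4 lower of 18 listed. Beside these counts stand 26.0% and 23.0% of all tested genes. PIAS2, a SUMO ligase that restrains STAT proteins, went from 1.05, 1.11 and 1.00 CPM to 3.82, 3.02 and 3.81 CPM (log2 fold change 1.75, SE 0.19, adjusted p = 0.00601). SOCS5, a relative of SOCS3, rose by 1.73 (SE 0.29, adjusted p = 0.00727), SOCS6 by 1.17 (SE 0.26, adjusted p = 0.0110) and PIAS1 by 0.81 (SE 0.19, adjusted p = 0.0136), the last losing its call without Oligonol 3. Among the other SOCS relatives, SOCS4 was also called higher (0.99, adjusted p = 0.0317) and SOCS7 lower (-0.59, adjusted p = 0.0357). With the GC trend removed PIAS2 (0.87, adjusted p = 0.0279) and SOCS5 (0.93, adjusted p = 0.0485) were still called higher, and SOCS2 was called lower (-0.65, adjusted p = 0.0344), having missed the threshold without that step (-0.30, adjusted p = 0.142). SOCS6 was then at 0.36, PIAS1 at 0.08, SOCS4 at -0.27 and SOCS7 at -0.17. With a library left out as well, PIAS2 was called in 2 of 6 fits (without control 1 or Oligonol 2) and SOCS5 in 0 of 6, and with GC of the longest transcript SOCS5 also missed the threshold (0.73, adjusted p = 0.0737). SOCS2, SOCS4 and SOCS7 are named after their values were seen.

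Adaptors, sheddases and cofactors were mostly higher, and all 19 were tested: 12 were higher and 1 lower, with a median of 0.87. Over all tested genes 26.0% were called higher and 23.0% lower. ADAM10 and ADAM17, the proteases that cut IL6R from the cell surface, rose by 1.33 (SE 0.24, adjusted p = 0.00799) and 1.28 (SE 0.21, adjusted p = 0.00722). ADAM17 went from 2.54, 3.32 and 2.56 CPM to 7.75, 5.46 and 7.22 CPM. STAM, an adaptor that binds JAKs and sorts receptors, rose by 1.53 (SE 0.21, adjusted p = 0.00620), and SOS1, the exchange factor that links receptors to Ras, by 1.33 (SE 0.22, adjusted p = 0.00736). Once the GC trend was removed, ADAM10 stood at 0.41, ADAM17 at 0.42, STAM at 0.64 and SOS1 at 0.22, the median came to 0.22, and 1 of the 19 was called, PTPN11, the phosphatase SHP2 that docks on gp130 and links it to Ras (0.62, adjusted p = 0.0425). By edgeR, 6 of the 19 then had an unadjusted p under 0.05 in either direction. PTPN11, named after its values were seen, had a log2 fold change of 0.87 under TMM (adjusted p = 0.00920).

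Known STAT3 target genes did not move together: of 28 listed, 24 were tested, 4 were higher and 9 lower, with a median of -0.50. Of all tested genes 26.0% were called higher and 23.0% lower. ZEB1, a repressor of epithelial genes, rose by 1.73 (SE 0.29, adjusted p = 0.00756), and BCL2, which blocks apoptosis, by 1.03 (SE 0.18, adjusted p = 0.00761). JUNB, an immediate early factor, went from 9.99, 15.6 and 17.0 CPM to 4.27, 7.55 and 4.68 CPM (log2 fold change -1.38, SE 0.30, adjusted p = 0.0108). CEBPD fell by 0.91 (SE 0.22, adjusted p = 0.0141) and lost its call without Oligonol 1 or Oligonol 3. With library totals JUNB was at -0.02 and CEBPD at 0.50, and 14 targets were called higher and 0 lower (edgeR; 16 at an unadjusted p under 0.05 in either direction). Once the GC trend was removed, ZEB1 stood at 0.89, BCL2 at 0.34, JUNB at -0.40 and CEBPD at 0.12, the median came to 0.04, and VIP, a neuropeptide, was the 1 called gene (-1.39, adjusted p = 0.0227). By edgeR, 11 of the 24 then had an unadjusted p under 0.05 in either direction. VIP, named after its values were seen, had missed the threshold under TMM (-0.23, adjusted p = 0.375).

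**Figure D4:**
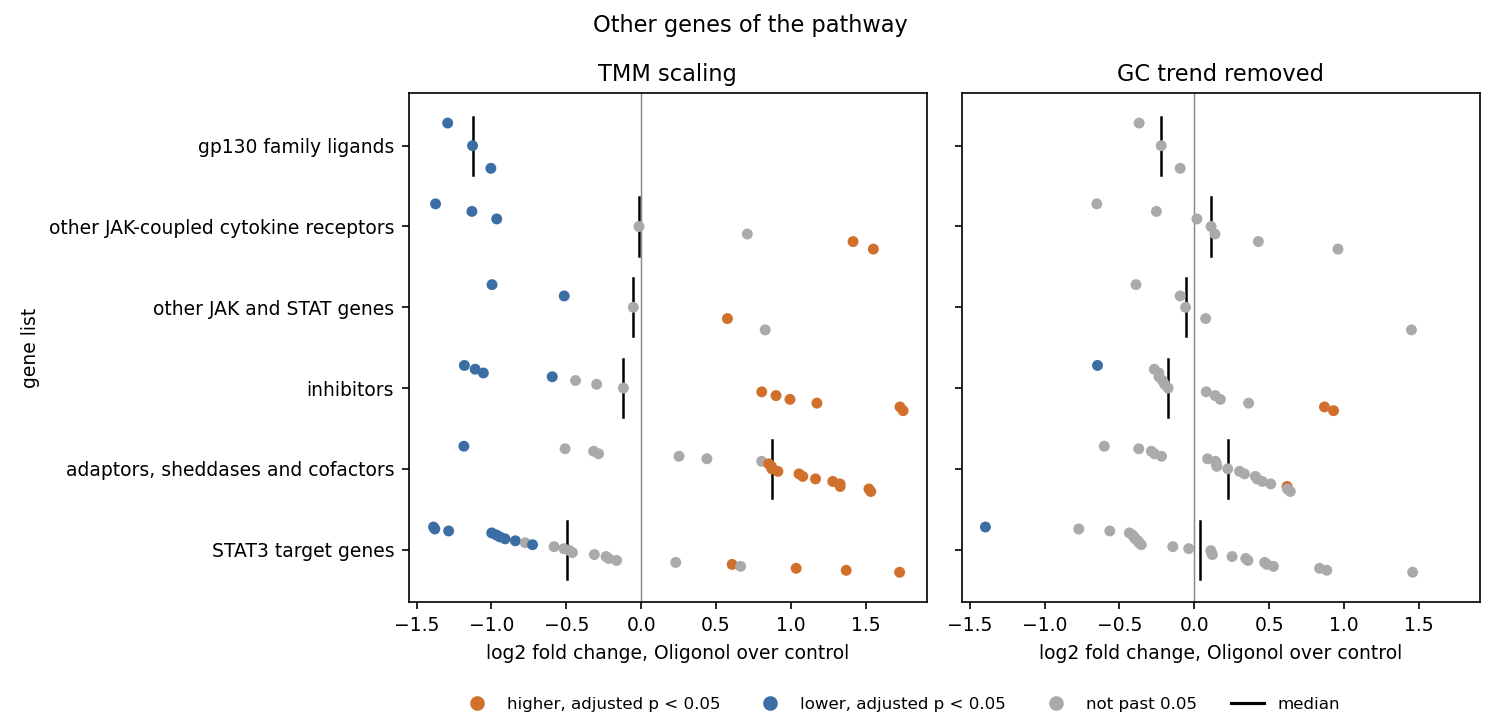
Log2 fold change, Oligonol over control, of the 71 tested pathway genes by list, with points coloured by the adjusted p of edgeR's quasi-likelihood test and bars for list medians, under TMM scaling (left) and with the GC trend removed (right). Under TMM 25 genes were higher and 22 lower, and with the GC trend removed 3 and 2, while with library totals 50 were higher and 0 lower.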

How the data were processed

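Total RNA of 6 SH-SY5Y libraries was sequenced from stranded libraries as read pairs of 100 nt, per the labels' protocols. Per the submitters' processing notes, FastQC, kallisto 0.46.1, edgeR and the build GRCh38.p13 were used, with no role given. The authors deposited estimated counts and a scaled signal for each gene and library. Each deposited signal value equalled its estimated count multiplied by 1 constant per library. How transcripts were combined into genes is not stated. For low genes with 1 transcript of 500 to 1500 nt, 74.3 to 77.4% of the deposited estimated counts lay within 0.05 of a whole read once multiplied by effective length, on a scale fitted to favour whole numbers, so values are read as abundances per length. Protein-coding genes rested on 5192675 to 6423877 such reads per library.

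Estimated counts were rounded, filtered with filterByExpr, scaled by TMM and fitted with the robust quasi-likelihood test of edgeR 4.0.16 in R 4.3.3 (group as the only term, 2-sided, Benjamini-Hochberg adjustment over 16574 genes, threshold 0.05). Standard errors are those implied by the test. For the GC trend, log2 CPM less the gene's mean was fitted in each library on median transcript GC of protein-coding genes (GENCODE release 29, natural spline of 5 degrees of freedom) and entered as an offset. In simulated data of 16574 genes with 200 changed 4-fold, 79% of the changed genes were recovered. That simulation had as many rises as falls and no GC trend, so it does not show how far calls in these data hold. Alternatives were RLE scaling, library totals, DESeq2 1.42.0, other filters, a block for the replicate number, leaving out each library, and GC of the longest transcript, the last added after the data were seen.

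The members and lists were chosen with earlier results of these data known. Named were the members, in each list the 4 tested genes with the smallest p, and the 5 genes nearest to IL6ST. A few of these are not reported here. Genes named after their values were seen are marked as such. No protein sequences were used here.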

Additional observations from a re-analysis of the deposited data

How the results depend on the processing

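RLE scaling, DESeq2 and a minimum of 10 counts in every library kept the counts called higher and lower over all genes and over the 71 pathway genes within 1.5 times of those reported, and left IL6ST at 2.34, 2.35 and 2.67. Single lists moved more: at a minimum of 10 counts, which 9 of the inhibitors met, 2 inhibitors and 2 members (IL6ST and JAK1) were higher, and by DESeq2 0 of the other JAK and STAT genes were higher and 1 was lower (edgeR called 1 and 2). JAK2 was at -0.04 with RLE scaling and -0.05 by DESeq2. Without a low-count filter 1603 genes and 7 pathway genes were lower. With library totals 11293 genes were higher and 37 lower, as were 50 and 0 pathway genes (edgeR; 52 and 0 at an unadjusted p under 0.05), and IL6ST stood at 3.82. Under that scaling log2 fold changes turned to 0.59 for CNTFR, 0.44 for TYK2, 0.060 for SOCS3, 0.38 for LIF, 0.029 for IL11, 0.25 for IL11RA, 0.0041 for IL27RA, 0.38 for EPOR, 0.40 for JAK3, 0.88 for STAT2 and 0.50 for CEBPD. With the GC trend removed 468 genes were higher and 414 lower, 3 and 2 of them pathway genes, IL6ST stood at 1.43, and CNTFR (0.18), JAK2 (-0.92), EPOR (0.018) and CEBPD (0.12) turned. With GC of the longest transcript the counts were 743 and 703, and 3 and 3 in the pathway, IL6ST stood at 1.39, and CNTFR (0.22), LIFR (-0.0029), JAK2 (-0.89), TYK2 (0.0062), PIAS1 (-0.037) and CEBPD (0.12) turned.

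Leaving out each library gave 2118 to 4540 higher and 1321 to 4381 lower genes, 14 to 28 and 5 to 25 pathway genes, and 2.17 to 2.85 for IL6ST. With the GC trend removed as well these were 0 to 639 and 0 to 666, 0 to 2 and 0 to 4, and 1.28 to 1.74, with 0 calls in either direction without control 2 or Oligonol 3. Over the fits with a library left out, with and without the GC trend, values ran from -0.93 to 0.38 for CNTFR, -1.12 to 0.058 for TYK2, -1.21 to 0.039 for EPOR, -1.17 to 0.088 for JAK3, -0.030 to 0.89 for PIAS1 and -1.06 to 0.33 for CEBPD, and each change of sign in these genes came with the trend removed. JAK2, LIFR and STAT3 also changed sign in some of these fits (-1.30 to 0.45, -0.24 to 1.35 and -0.04 to 0.30). The SE of JAK2 exceeded its value in the fits that kept the GC trend. With the trend removed JAK2 ran from -1.30 to -0.61, and its value exceeded its SE. The log2 ratio of CNTFR to IL6ST in controls was 3.89, and 3.66 to 4.32 with a control left out. The deposited signal gives the same ratio by arithmetic, as it is the estimated count multiplied by a constant within each library.

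Replicate numbers did not pair the libraries (same-number correlations of 0.09, -0.01 and -0.15). With the replicate block 3560 genes were higher and 3470 lower, 23 and 19 of them pathway genes, and IL6ST stood at 2.44. The block together with the GC trend removed gave 0 calls in either direction over all genes and in the pathway (edgeR; 2002 higher and 1994 lower at an unadjusted p under 0.05), with IL6ST at 1.46 and CNTFR (0.20), JAK2 (-0.89), EPOR (0.018) and CEBPD (0.13) turned. Apart from the fewer libraries or genes that some of these fits used, the cause of these differences was not tested. Depth limits IL6R, OSMR and most ligands, which rest on a few reads, and 3 libraries a group limit the precision of all values.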
